A study of Mus musculus with 6 samples.

Results

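Cytochrome P450 enzymes are haem proteins that put an oxygen atom into fatty acids, steroids, retinoids and foreign compounds. In the kidney, which uses them mostly in the proximal tubule, the CYP4A and CYP4F enzymes hydroxylate arachidonic acid at the end of its chain, and CYP2C and CYP2J enzymes make epoxides from it. Both kinds of product act on blood vessels and on salt transport. In mice several of these genes are also known to be set by sex hormones, and most Cyp4a genes are known targets of PPAR alpha, the nuclear receptor that senses fatty acids.

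The P450 genes were taken as the rows of a mouse gene count table whose symbol starts with Cyp and a digit. Cyp24a1, Cyp27b1 and Cyp51, named in the rule, were left out, as were 30 pseudogene symbols ending in -ps, of 131 such symbols in all. Of the 98 genes that remained, 49 had at least 10 counts in at least 3 libraries, among 57132 gene rows of the table. The 49 consisted of 23 of 49 Cyp2 genes, 6 of 8 Cyp4a genes, 8 of 13 other Cyp4 genes, 2 of 3 Cyp1 genes, 1 of 9 Cyp3 genes, 1 of 6 steroid-synthesis genes, 4 of 6 sterol and bile acid genes, and all 4 retinoid and remaining genes. Of the 49 below the minimum, 29 had no count in any library. Just inside it were Cyp26c1, with counts of 0, 0 and 5 in the Cre_negative libraries and 15, 10 and 11 in the Cre_positive ones, and Cyp2b9, with 15, 15 and 27 against 0, 3 and 0. These 2 genes reached the minimum in 1 genotype only. Just outside it were Cyp4f15, which had 23 and 28 counts in its 2 highest libraries, and Cyp2b23, which had 19 and 14.

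The samples were glomeruli, the filtering units of the kidney, from mice labelled with diabetic kidney disease (DKD). Both groups carried the floxed allele: 3 libraries were Cre-/Setdb2fl/fl (Cre_negative) and 3 were Cre+/Setdb2fl/fl (Cre_positive), so that the comparison addresses loss of SETDB2, a SET-domain protein of chromatin, which the design text places in podocytes. The sources used here give neither the promoter that drives Cre, nor how diabetes was brought about, nor the mice's age and sex, and no group without diabetes is among the samples. The labels do not state that replicates are separate animals, so a p-value here rests on the spread among 6 libraries, which may be partly technical. Bulk libraries cannot tell apart fewer cells of a type and less RNA per cell.

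The libraries held 53571438 to 58807042 counts, of which the 49 P450 genes took 0.391% to 0.589%. Setdb2, the targeted gene, was at 8.37 ± 1.62 CPM in Cre_negative libraries and 7.70 ± 0.371 CPM in Cre_positive ones (CPM, counts scaled to library size with edgeR's TMM factors; values after ± are the SD throughout, n = 3 each). The log2 fold change was −0.12 (SE 0.18, edgeR adjusted p = 0.738; two-sided exact permutation p = 0.6, smallest possible 0.1), and without Cre_negative replicate 1 it was 0.0024, so the level of Setdb2 did not check the genotype labels. Deletion of single exons was not analysed here. Xist had 36474 to 47632 counts in 5 libraries and 24 in Cre_positive replicate 2, and Kdm5d, Uty, Eif2s3y and Ddx3y, which lie on the Y chromosome, were listed at 0 in all 6. The part of this in the results on sex-dependent P450 genes was not tested. Proximal tubule markers were abundant in all libraries: the 28 genes of that list summed to 20454 to 26265 CPM in Cre_negative libraries and 27091 to 29501 CPM in Cre_positive ones. The 15 podocyte markers summed to 728 to 835 and 934 to 1045 CPM.

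Every P450 enzyme holds its haem iron by a cysteine near the end of the protein. A window of 30 coding bases around this cysteine was found in 47 of the 49 genes, in all but Cyp2s1 and Cyp20a1, on GENCODE M21 models of the GRCm38 build. It is shown for genes that carry the results, with the cysteine codon in capitals, because it lets closely related copies be compared base by base. Each window crosses an exon boundary, so it has no single pair of coordinates.
Cyp4a10: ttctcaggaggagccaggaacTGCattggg
Cyp4a12a: ttctcaggaggagcaaggaacTGCattggg
Cyp4a12b: ttctcaggaggagcaaggaacTGCattggg
Cyp4a14: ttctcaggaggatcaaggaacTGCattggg
Cyp4f18: ttctcggctgggcccaggaacTGCatagga
Cyp4v3: ttttctgctggacctcgaaacTGTattggt
Cyp2d26: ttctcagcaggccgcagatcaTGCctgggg
Cyp2j5: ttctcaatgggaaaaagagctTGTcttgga
Cyp2j11: ttctcaatgggaaagagagctTGCcctggg
Cyp2j13: ttttcaatgggaaagcgagctTGCctcgga
The windows of Cyp4a31 and Cyp4a32 are the same as that of Cyp4a10, and Cyp4a12a and Cyp4a12b share theirs. Cyp4a10 and Cyp4a12a differ at 1 of the 30 bases, and Cyp4a10 and Cyp4a14 at 2. The cysteine codon was TGC in 32 genes and TGT in 15. Cyp2d9 has the window of Cyp2d26, although the 2 genes had different fold changes, as described with the Cyp2d genes.

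Of the 48 P450 genes that could be tested, 10 (20.8%) passed an adjusted p of 0.05, against 7.55% of the 19927 genes tested. Lower in Cre_positive libraries were 8 of them (16.7%, against 3.82% of all genes), namely Cyp4a12b, Cyp4a12a, Cyp4a32, Cyp4a31, Cyp4f18, Cyp4v3, Cyp2s1 and Cyp2j13. Higher were Cyp2d26 and Cyp2j11 (4.17%, against 3.73% of all genes). The remaining 38 did not pass. The median log2 fold change over all 48 was −0.19, with 33 negative and 15 positive values, beside −0.0009 over all genes. Leaving aside Cyp2b9 and Cyp26c1, which reached the count minimum through 1 genotype, the CPM values of the genotypes did not overlap in 22 of 47 genes. All Cre_positive libraries were below in 17 of them and above in 5. Over all genes tested 29.7% did not overlap, 14.5% below and 15.2% above. Leaving out 1 library at a time gave between 5 and 11 calls, with 5 without Cre_positive replicate 2 and 5 without Cre_positive replicate 3. In those 2 fits 10.2% and 10.4% of the P450 genes tested passed, beside 2.94% and 2.24% of all genes.

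**Figure D1:**
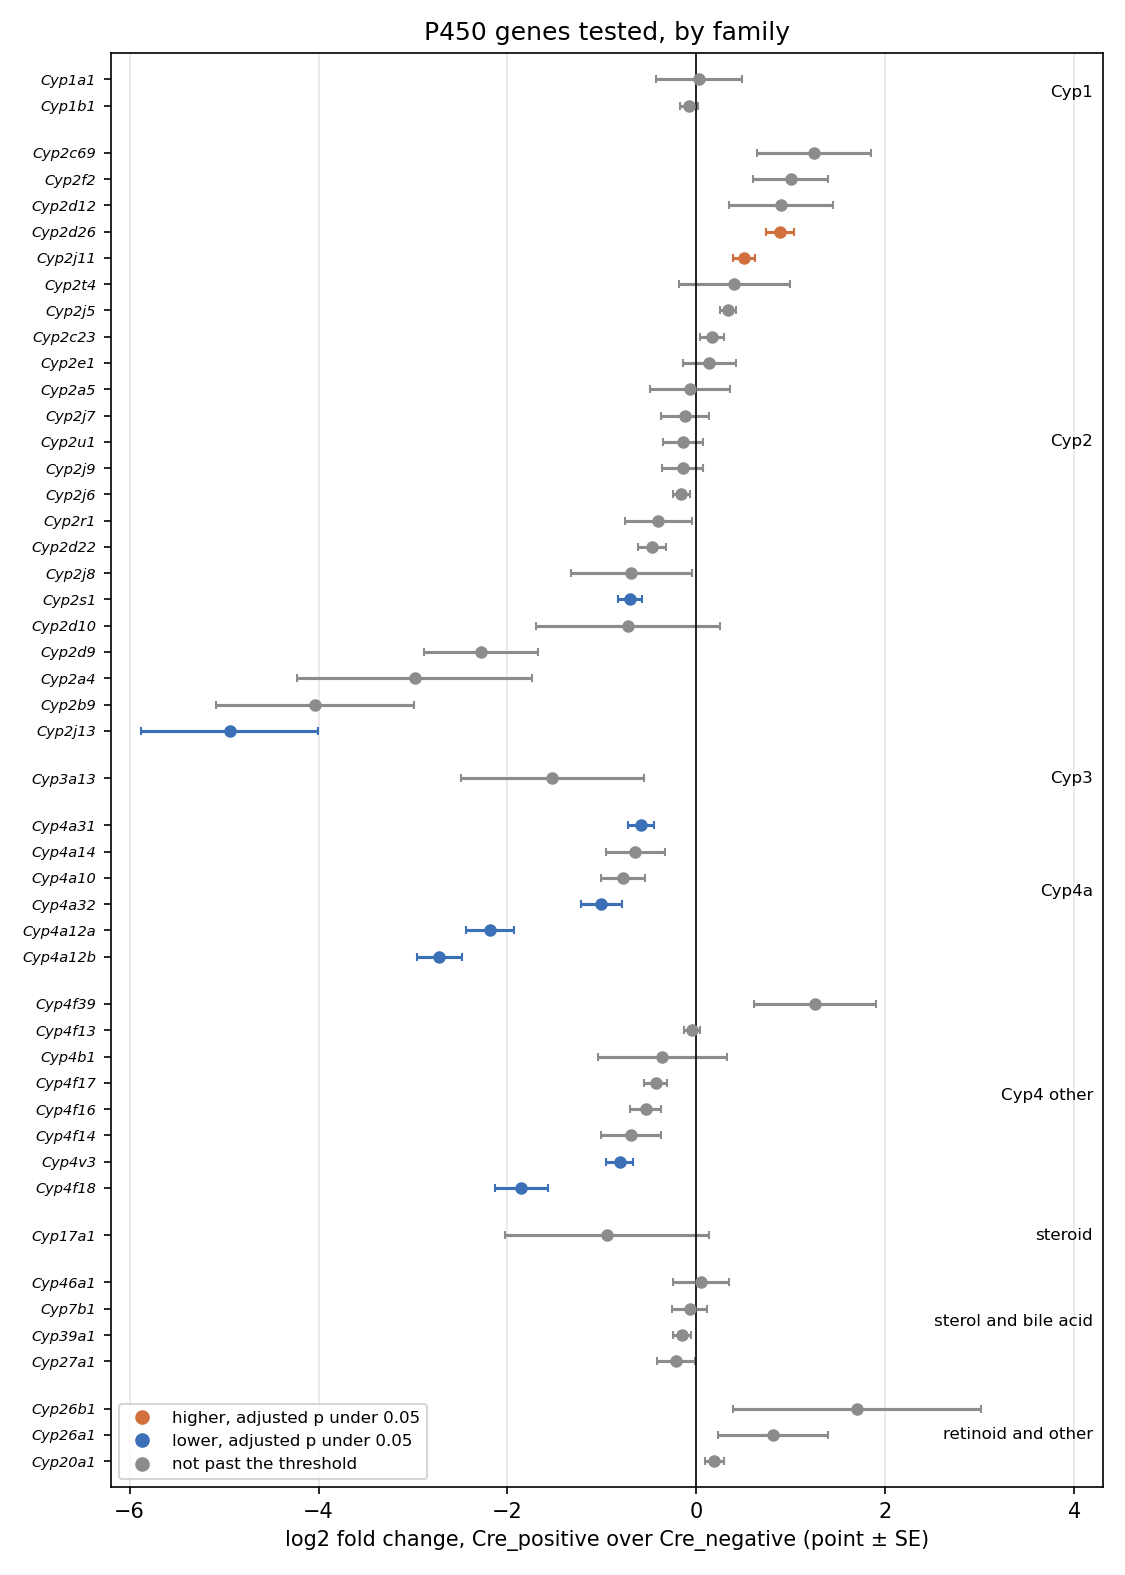
Log2 fold change of each P450 gene tested, Cre_positive over Cre_negative, by family. Points are edgeR estimates and bars their standard errors, with colour marking genes past an adjusted p of 0.05. The Cyp4a genes all lie left of 0, Cyp2j13 lies farthest left at −4.94, and Cyp26b1 has the widest bar on the right (SE 1.32).

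Most P450 counts came from 5 genes. Cyp2j5, Cyp4a10, Cyp4a14, Cyp4a31 and Cyp2d26 made up 77.8% to 84.7% of the summed P450 CPM in each library. Per kilobase of exon, mean levels were 447 CPM for Cyp4a10, 417 for Cyp2j5, 337 for Cyp4a14, 214 for Cyp2d26 and 176 for Cyp4a31. The next gene, Cyp2j11, was at 89.6 CPM per kilobase. The Cyp4a genes made up 52.3%, 65.3% and 54.3% of the P450 CPM in Cre_negative libraries and 38.7%, 42.9% and 43.6% in Cre_positive libraries. The Cyp2 genes made up 40.3%, 30.3% and 37.6% against 55.4%, 48.6% and 49.0%. Neither family's shares overlapped between genotypes: Cyp4a held the larger share in every Cre_negative library and Cyp2 in every Cre_positive one. Summed CPM were 2835 ± 962 against 1744 ± 203 for Cyp4a and 1720 ± 149 against 2119 ± 76.2 for Cyp2. All 49 genes together summed to 4865 ± 1061 and 4168 ± 236 CPM (SD, n = 3 each), with the genotypes' libraries overlapping.

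**Figure D2:**
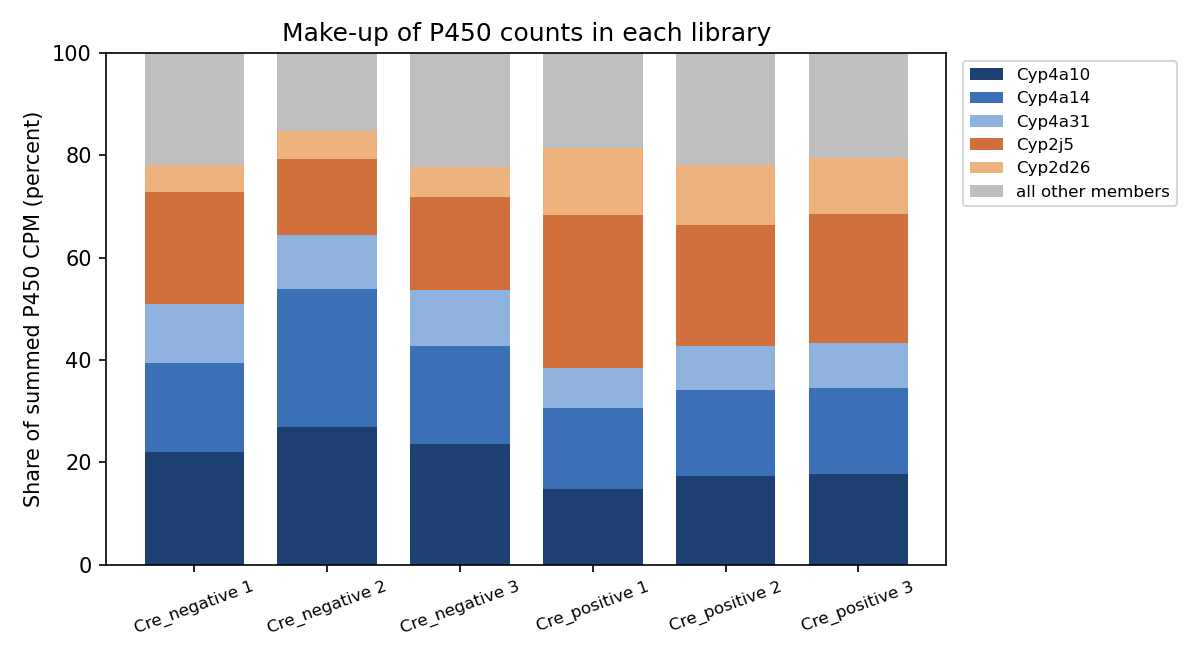
Share of the summed P450 CPM in each library, in percent, for Cyp4a10, Cyp4a14, Cyp4a31, Cyp2j5, Cyp2d26 and all other members. Bars are single libraries stacked to the whole. Cyp4a10 was at 22.0% to 26.9% in Cre_negative libraries and at 14.8% to 17.6% in Cre_positive ones.

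The Cyp4a enzymes are the fatty acid omega-hydroxylases of the kidney. All 6 measured members were lower on average in Cre_positive libraries: 4 fell (3.82% of all genes did), 2 did not pass, none rose, and the median log2 fold change was −0.89. They lie together on chromosome 4 in the order Cyp4a12a, Cyp4a12b, Cyp4a14, Cyp4a10, Cyp4a31 and Cyp4a32, with Cyp4a30b between Cyp4a12b and Cyp4a14 and Cyp4b1 at the far end. The largest falls were at the first 2 genes of this row.

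Cyp4a12a and Cyp4a12b encode the arachidonic acid omega-hydroxylases known in mice for their high level in males. Cyp4a12b had 27.0, 21.1 and 14.4 CPM in the Cre_negative libraries and 3.62, 2.69 and 3.17 CPM in the Cre_positive ones. Every Cre_positive library was thus far below the lowest Cre_negative one, and the fitted level was 6.60-fold lower (95% interval 4.51 to 9.64; log2 fold change −2.72, SE 0.24, edgeR adjusted p = 0.000679). Cyp4a12a had 9.04, 7.69 and 5.58 CPM against 1.33, 1.67 and 1.90 CPM. It was 4.55-fold lower (3.07 to 6.75; −2.19, SE 0.25, adjusted p = 0.00208), also without overlap. Both passed in all 6 fits that left out 1 library, with adjusted p of at most 0.00852 for Cyp4a12b and 0.0160 for Cyp4a12a. The counts behind these values were 813 to 1638 against 153 to 193 for Cyp4a12b and 314 to 549 against 71 to 102 for Cyp4a12a.

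The coding sequences of the pair are 98.6% identical, differing at 22 of 1525 aligned positions, and 35.8% of the stretches of 100 bases in Cyp4a12a exons also occur in Cyp4a12b. The reads' assignment to one or the other copy is therefore uncertain, and the pair was also tested as a sum. The sum was 36.0, 28.8 and 20.03 CPM in the Cre_negative libraries against 4.95, 4.35 and 5.07 CPM in the others. It fell 5.90-fold (95% interval 4.23 to 8.23; log2 fold change −2.56, SE 0.21, adjusted p = 0.000531). Cyp4a12b took 72.1% to 74.9% of the pair's counts in the Cre_negative libraries. In the Cre_positive libraries it took 73.1%, 61.7% and 62.5%.

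Cyp4a31 and Cyp4a32 fell less. Cyp4a31 had 440.6, 627 and 524 CPM in Cre_negative libraries and 307, 363 and 388 CPM in Cre_positive ones, which did not overlap. Its log2 fold change was −0.59 (SE 0.14, adjusted p = 0.0390). Cyp4a32 had 14.5, 19.99 and 11.5 CPM against 8.48, 6.21 and 8.14 CPM, or −1.01 on the log2 scale (SE 0.22, adjusted p = 0.0268). Both calls depended on single libraries. For Cyp4a31 the adjusted p was 0.0758 without Cre_negative replicate 2, 0.0680 without Cre_negative replicate 3, and 0.131, 0.116 and 0.0880 without Cre_positive replicates 1, 2 and 3. For Cyp4a32 it was 0.0645 without Cre_negative replicate 2 and 0.0675, 0.104 and 0.0936 without Cre_positive replicates 1, 2 and 3. In the fit with a replicate block it was 0.0551. The coding sequences of Cyp4a10, Cyp4a31 and Cyp4a32 are 96.0% to 97.2% identical, and 18.2% of the 100-base stretches of Cyp4a32 occur in another gene.

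Cyp4a10 and Cyp4a14, the most strongly PPAR alpha-inducible members in mice, did not pass. Cyp4a10 had 843, 1602 and 1127 CPM in Cre_negative libraries and 582, 728 and 774 CPM in Cre_positive ones, without overlap (log2 fold change −0.78, SE 0.23, adjusted p = 0.0964). Without Cre_negative replicate 1 it passed (−0.97, adjusted p = 0.0219), and with a replicate block it passed at 0.0228. Cyp4a14 had 671, 1612 and 926 CPM against 617, 696 and 739 CPM (−0.64, SE 0.31, adjusted p = 0.279). For both genes Cre_negative replicate 2 was the highest library, and for Cyp4a14 the lowest Cre_negative library lay among the Cre_positive ones.

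**Figure D3:**
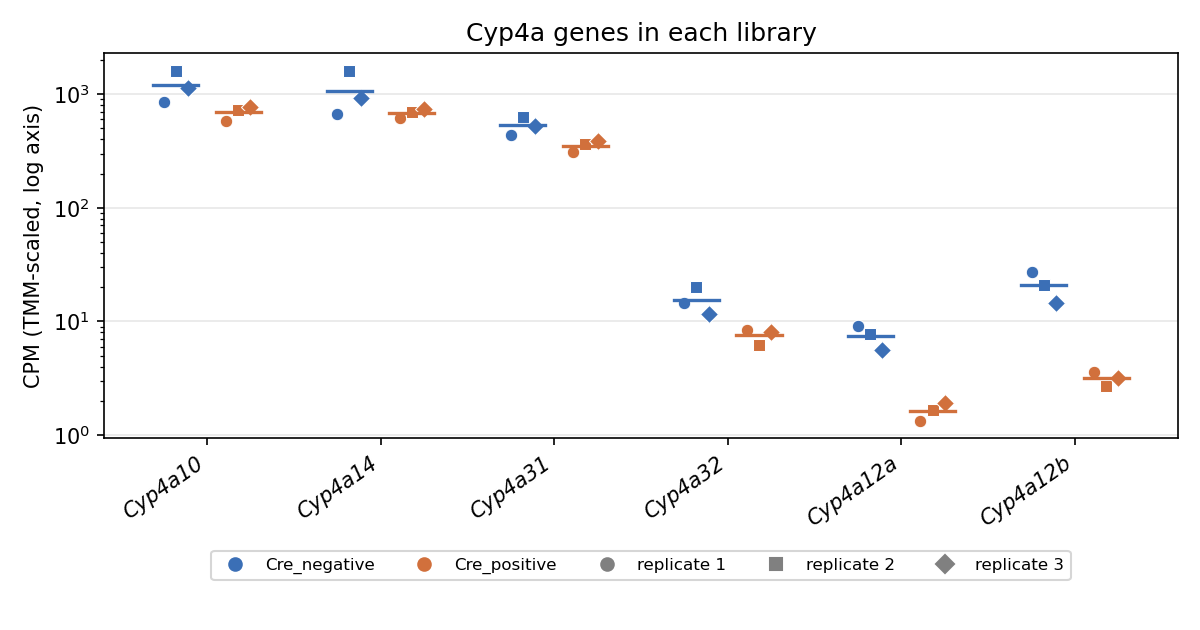
CPM of the 6 Cyp4a genes in each library on a log axis. Points are libraries, with the shape giving the replicate number, and bars are group means. Cyp4a12a and Cyp4a12b show the widest gap between genotypes, and for Cyp4a14 the lowest Cre_negative library (671) lies below the 2 highest Cre_positive ones.

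The other Cyp4 genes include the CYP4F enzymes, which inactivate leukotrienes and hydroxylate long fatty acids. Of 8 genes tested, 2 fell and none rose (25.0% called, against 7.55% of all genes), and 7 of 8 had a negative log2 fold change, with a median of −0.48. Cyp4f18, a leukotriene B hydroxylase of mouse neutrophils, had 1.98, 2.00 and 1.92 CPM in Cre_negative libraries and 0.525, 0.544 and 0.559 CPM in Cre_positive ones. The libraries of each genotype lay close together, and the level was 3.61-fold lower (95% interval 2.33 to 5.59; log2 fold change −1.85, SE 0.28, adjusted p = 0.00661). It passed with each library left out (highest adjusted p 0.0373). Exons of Zfp961 overlap Cyp4f18 on the opposite strand, and the sources used here do not give the strand setting of the counting, so reads of the 2 genes cannot be told apart. Of 10 macrophage markers, 2 fell, none rose and 8 did not pass (3.82% of all genes fell), and their sum was 188 to 348 CPM in Cre_negative libraries and 171 to 187 CPM in Cre_positive ones. All 10 could be tested and none was at 0 in all libraries, and their part in the fall of Cyp4f18 was not tested.

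Cyp4v3, the mouse counterpart of the human fatty acid hydroxylase CYP4V2, had 13.6, 12.3 and 10.6 CPM in Cre_negative libraries and 7.00, 6.55 and 7.29 CPM in Cre_positive ones. These did not overlap, and the level was 1.75-fold lower (1.40 to 2.20; log2 fold change −0.81, SE 0.14, adjusted p = 0.0135). Without Cre_positive replicate 1, 2 or 3 the adjusted p was 0.0531, 0.0625 or 0.0595. Its exons overlap those of Gm45753 on the same strand, so its counts are uncertain. Cyp4f16, Cyp4f17 and Cyp4f14, neighbours or near relatives on chromosome 17, each had all Cre_positive libraries below the Cre_negative ones and did not pass. Their log2 fold changes were −0.54 (adjusted p = 0.0827), −0.43 (0.0689) and −0.69 (0.234). Without Cre_negative replicate 2, Cyp4f16 passed (adjusted p = 0.0443), as it did with a replicate block (0.0387). Cyp4f13, the most abundant Cyp4f gene per kilobase of exon (8.63 CPM), was at 38.9 ± 1.27 and 37.7 ± 3.20 CPM (−0.05, SE 0.086, adjusted p = 0.7997). Cyp4f39 stayed under 1 CPM in every library.

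Cyp4b1, a fatty acid and xenobiotic hydroxylase next to the Cyp4a row, had 33.7, 34.7 and 146 CPM in Cre_negative libraries and 42.2, 57.6 and 67.4 CPM in Cre_positive ones. Cre_negative replicate 3 stood above all other libraries. The log2 fold change was −0.36 (SE 0.68, adjusted p = 0.809), and without that library it was 0.71 (adjusted p = 0.0627).

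The Cyp2 genes are the largest family and act on drugs, steroids and arachidonic acid. Of 23 tested, 2 rose and 2 fell (17.4% called, against 7.55% of all genes, 3.73% higher and 3.82% lower), and 9 had positive and 14 negative log2 fold changes, with a median of −0.14. The Cyp2j genes, on chromosome 4 in the order Cyp2j13, Cyp2j7, Cyp2j11, Cyp2j8, Cyp2j6, Cyp2j9 and Cyp2j5, held 1 rise and 1 fall. Cyp2j5, the main arachidonic acid epoxygenase of mouse kidney, had 837, 883 and 873 CPM in Cre_negative libraries and 1171, 991 and 1108 CPM in Cre_positive ones. All Cre_positive libraries were above, but the difference did not pass (log2 fold change 0.34, SE 0.090, adjusted p = 0.0574). Cyp2j11 had 117, 146 and 164 CPM against 191, 202 and 211 CPM. It rose 1.42-fold (1.17 to 1.70; 0.50, SE 0.12, adjusted p = 0.0379), a call lost without Cre_negative replicate 2 (0.0810) and without Cre_positive replicates 1, 2 and 3 (0.0851, 0.120 and 0.144).

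Cyp2j13 went the other way, at a mean of 0.297 CPM per kilobase of exon. It had 274, 82 and 119 counts in Cre_negative libraries and 0, 2 and 12 in Cre_positive ones, or 4.51, 1.47 and 2.11 CPM against 0, 0.0351 and 0.224 CPM. The libraries did not overlap, and the fitted level was 30.7-fold lower with a wide interval (6.75 to 139.8; log2 fold change −4.94, SE 0.93, adjusted p = 0.0225). Without Cre_positive replicate 2 the adjusted p was 0.0969. The log2 fold change was −7.06 without Cre_positive replicate 3 and −4.35 without Cre_negative replicate 1. A fold from so few counts depends on the prior count of the fit. None of the 100-base stretches of Cyp2j13, Cyp2j11 or Cyp2j5 occurs in another gene, and their haem windows differ at 4 or 5 of 30 bases. Cyp2j6, Cyp2j7, Cyp2j8 and Cyp2j9 overlapped between genotypes, with log2 fold changes of −0.69 to −0.12.

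The Cyp2d genes are relatives of the human drug-metabolising CYP2D6. Of 5 members 1 rose, beside 3.73% of all genes, and the other 4 did not pass. Cyp2d26 had 204, 322 and 283 CPM in Cre_negative libraries and 517, 492 and 487 CPM in Cre_positive ones. Every Cre_positive library was above the highest Cre_negative one, and the level rose 1.85-fold (95% interval 1.46 to 2.35; log2 fold change 0.89, SE 0.15, adjusted p = 0.0122). Without Cre_positive replicate 3 the adjusted p was 0.0554. Cyp2d9, a steroid hydroxylase known in mice for its high level in males, had 53.7, 62.3 and 83.8 CPM against 4.54, 13.7 and 22.9 CPM. The genotypes did not overlap, yet the Cre_positive libraries spread widely and the difference did not pass (−2.28, SE 0.61, adjusted p = 0.102). Without Cre_positive replicate 1 it passed (−1.86, adjusted p = 0.0376). Cyp2d22 was lower without overlap and did not pass (−0.47, adjusted p = 0.103), but passed with a replicate block (0.0242). Cyp2d12 overlapped (0.90, SE 0.55, adjusted p = 0.408), and Cyp2d10, at under 1 CPM, did too.

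Cyp2d9 and Cyp2d10 lie next to each other on chromosome 15 and their coding sequences are 92.5% identical. Per kilobase of exon, Cre_negative means were 25.1 CPM for Cyp2d9 and 0.226 CPM for Cyp2d10. Exons of Gm46501, a transcribed pseudogene, and of Gm27622, a miRNA gene, overlap Cyp2d9 on the same strand. Of the 100-base stretches, 7.91% in Cyp2d9 and 11.7% in Cyp2d10 occur in another gene, so the counts of both genes are uncertain. Their promoters, from 250 bases before to 50 after the RefSeq start on GRCm38.p6, are shown because the pair differs so much in level while 83.3% of aligned positions are identical.
Cyp2d9 chr15:82452127-82452426 (+): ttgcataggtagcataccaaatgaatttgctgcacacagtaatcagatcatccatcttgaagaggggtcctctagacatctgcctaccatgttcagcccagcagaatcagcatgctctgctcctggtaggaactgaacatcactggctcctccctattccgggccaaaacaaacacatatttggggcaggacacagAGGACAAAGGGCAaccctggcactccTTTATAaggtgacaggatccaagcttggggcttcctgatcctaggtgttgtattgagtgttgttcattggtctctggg
Cyp2d10 chr15:82407145-82407444 (-): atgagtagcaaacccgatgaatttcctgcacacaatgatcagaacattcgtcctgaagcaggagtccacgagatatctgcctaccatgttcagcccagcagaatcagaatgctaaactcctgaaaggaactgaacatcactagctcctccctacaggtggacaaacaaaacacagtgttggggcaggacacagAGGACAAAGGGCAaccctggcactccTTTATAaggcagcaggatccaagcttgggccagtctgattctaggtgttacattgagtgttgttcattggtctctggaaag
Capitals mark a direct repeat read by HNF4 and PPAR receptors (AGGNCA, any 1 base, AGGNCA) and TATAAA on the reverse strand. Both genes hold both matches at nearly the same place. The repeat, searched on both strands, occurs in 0.381% of 32851 RefSeq promoters of this length. For 35 of the 49 P450 genes 39 promoters were found, and 2 of the 39 hold the repeat, which are these 2. Among Cyp4a genes only Cyp4a32 was searched, because no promoter was found for Cyp4a10, Cyp4a12a, Cyp4a12b, Cyp4a14 or Cyp4a31. TATAAA occurs in 13.6% of all promoters and in 12 of the 39. GCGTG, the core letters bound by the aryl hydrocarbon receptor, was in 12 of the 39 (30.8%) and in 32.4% of all.

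Cyp2a4 is a steroid hydroxylase known in mouse liver for its high level in females. It had 26.7, 19.3 and 74.4 CPM in Cre_negative libraries and 0.619, 1.72 and 12.9 CPM in Cre_positive ones. The genotypes did not overlap, but the spread within each was large and the difference did not pass (log2 fold change −2.98, SE 1.24, adjusted p = 0.241). Without Cre_positive replicate 3 it passed (−5.09, adjusted p = 0.0486). Cyp2a5, whose coding sequence is 98.4% identical, was at 8.25 ± 4.04 and 7.87 ± 3.13 CPM (−0.07, SE 0.43, adjusted p = 0.948). The difference between the 2 genes was not tested, and 11.2% of the 100-base stretches of Cyp2a4 occur in Cyp2a5, so reads may be shared between them. An antisense transcript, Gm42375, also overlaps Cyp2a4. Their promoters are shown because 97.7% of aligned positions are identical while the Cre_negative levels were 23.1 and 3.98 CPM per kilobase. In Cre_positive libraries Cyp2a4 was at 2.93 and Cyp2a5 at 3.79 CPM per kilobase, so this order did not hold there.
Cyp2a4 chr7:26306942-26307241 (+): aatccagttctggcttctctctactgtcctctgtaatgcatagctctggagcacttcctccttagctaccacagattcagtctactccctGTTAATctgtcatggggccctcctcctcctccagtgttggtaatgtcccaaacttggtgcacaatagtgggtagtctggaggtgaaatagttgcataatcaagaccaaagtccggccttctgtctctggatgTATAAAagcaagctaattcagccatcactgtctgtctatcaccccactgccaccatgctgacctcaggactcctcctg
Cyp2a5 chr7:26835089-26835388 (+): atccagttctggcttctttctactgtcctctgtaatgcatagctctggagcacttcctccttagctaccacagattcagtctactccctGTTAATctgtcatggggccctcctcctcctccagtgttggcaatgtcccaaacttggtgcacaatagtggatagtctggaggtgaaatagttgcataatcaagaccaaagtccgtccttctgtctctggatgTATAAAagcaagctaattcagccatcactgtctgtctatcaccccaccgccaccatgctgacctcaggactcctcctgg
Capitals mark the letters GTTAAT and TATAAA, both on the printed strand. GTTAAT, on either strand, occurs in 7.10% of all promoters and in 6 of the 39 (15.4%).

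Cyp2s1, an enzyme expressed mostly outside the liver, fell. It had 65.3, 61.6 and 47.5 CPM in Cre_negative libraries and 36.6, 38.1 and 32.6 CPM in Cre_positive ones, without overlap, and was 1.63-fold lower (1.34 to 1.98; log2 fold change −0.70, SE 0.12, adjusted p = 0.0133). Without Cre_positive replicate 3 the adjusted p was 0.0697, and exons of Gm26707 overlap the gene on the opposite strand. Cyp2b9, known in mouse liver as a gene of females, had 57 counts summed over the Cre_negative libraries and 3 over the Cre_positive ones. It entered the set through its Cre_negative libraries alone, so its direction was fixed by the selection, and it did not pass (edgeR adjusted p = 0.0523). Cyp2f2, an enzyme of lung club cells, had 0.591 ± 0.239 and 1.18 ± 0.126 CPM, with all Cre_positive libraries above, and did not pass (log2 fold change 1.00, SE 0.39, adjusted p = 0.169).

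The other Cyp2 genes overlapped between genotypes and did not pass. They include the arachidonic acid epoxygenase Cyp2c23 (56.6 ± 10.3 and 63.5 ± 2.33 CPM) and the ethanol-oxidising Cyp2e1 (32.2 ± 7.82 and 35.4 ± 10.7 CPM). Cyp2r1, the vitamin D hydroxylase, was at 1.27 ± 0.251 and 0.960 ± 0.326 CPM. The fatty acid hydroxylase Cyp2u1, Cyp2c69 and Cyp2t4 were the others.

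**Figure D4:**
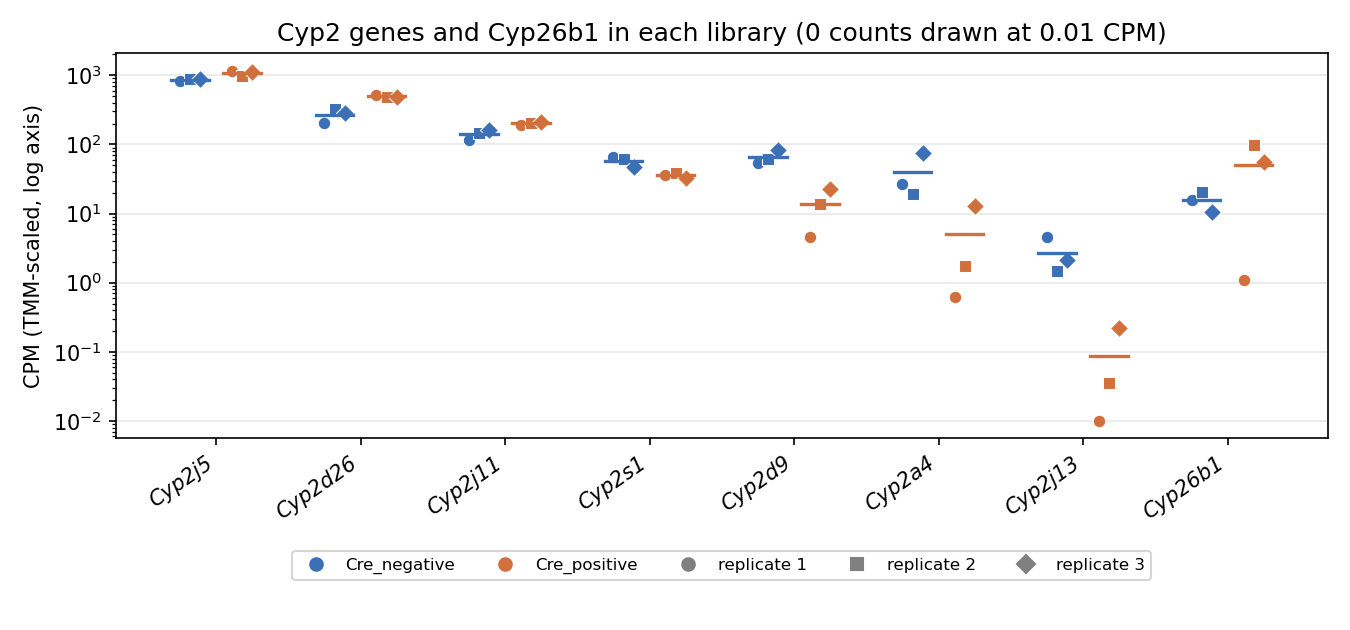
CPM of Cyp2 genes and of Cyp26b1, a gene of another family, in each library on a log axis. Shapes give the replicate number, bars are group means, and libraries with 0 counts are drawn at 0.01 CPM. Cyp2d26, Cyp2j11 and Cyp2j5 lie higher in every Cre_positive library, and Cyp2j13, Cyp2d9 and Cyp2a4 lie lower with a wide spread.

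Outside Cyp2 and Cyp4 no P450 gene passed the test. Cyp1b1 was at 47.3 ± 5.89 and 44.8 ± 2.01 CPM (log2 fold change −0.08, 95% interval −0.30 to 0.15), and Cyp1a1, the classical target of the aryl hydrocarbon receptor, at 1.36 ± 0.892 and 1.38 ± 0.0704 CPM. The single Cyp3 member, Cyp3a13, had 69, 94 and 42 counts against 29, 39 and 0, without overlap (−1.53, SE 0.97, adjusted p = 0.401). The hepatic Cyp3a11 had 4 counts in 1 library.

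Steroid synthesis was almost without transcripts. Cyp17a1, the hydroxylase and lyase on the way to androgens, was the only member and had 23, 36 and 0 counts against 5, 14 and 10 (adjusted p = 0.659). Cyp11b1, Cyp11b2 and Cyp19a1 were at 0 in all libraries, Cyp11a1 had 11 counts in all and Cyp21a1 7. Among sterol and bile acid genes, Cyp27a1 was at 34.5 ± 7.67 and 29.7 ± 6.39 CPM (−0.22, SE 0.20, adjusted p = 0.574). Cyp39a1 was at 16.2 ± 0.538 and 14.6 ± 0.245 CPM, with all Cre_positive libraries below, and did not pass (−0.15, SE 0.099, adjusted p = 0.410). Cyp7b1 and Cyp46a1, which make and handle oxysterols, had log2 fold changes of −0.07 and 0.05, and Cyp7a1 was at 0 in all libraries.

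The retinoic acid hydroxylase Cyp26b1 varied widely within Cre_positive. It had 956, 1154 and 602 counts in Cre_negative libraries and 59, 5514 and 2950 in Cre_positive ones, or 15.7, 20.6 and 10.7 CPM against 1.11, 96.8 and 55.0 CPM. Within Cre_positive the highest library was 87.5 times the lowest, and 1 library lay below and 2 above all Cre_negative ones (log2 fold change 1.70, SE 1.32, adjusted p = 0.520). Without Cre_positive replicate 1 it passed (2.27, adjusted p = 0.0403). Its relative Cyp26a1 overlapped at under 2 CPM. Cyp26c1, whose counts are given above with the selection, was not tested. Cyp20a1, whose substrate is not known, had all Cre_positive libraries above and did not pass (0.19, SE 0.098, adjusted p = 0.286).

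P450 enzymes need electrons and haem. Of 9 genes for their electron donors none passed edgeR's test, and the log2 fold changes ran from −0.42 to 0.32. An unadjusted p under 0.05 was found for 2 of them, beside 4683 of the 19927 genes tested. Por, the reductase that serves the enzymes of the endoplasmic reticulum, was at 256 ± 40.8 and 242 ± 35.9 CPM (−0.08, SE 0.14, adjusted p = 0.783). The smallest p was that of Cyb5r3, a cytochrome b5 reductase (−0.42, adjusted p = 0.0626). Of 13 genes for haem synthesis and breakdown only Hmox1, the inducible haem oxygenase, passed, beside 7.55% of all genes. Hmox1 fell from 36.5 ± 2.16 to 19.4 ± 2.92 CPM (−0.91, SE 0.12, adjusted p = 0.00351).

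Of 17 partners in arachidonic acid and epoxide metabolism 1 rose, 2 fell and 14 did not pass, beside 3.73% of all genes higher and 3.82% lower. Ephx1, the microsomal epoxide hydrolase, fell from 320 ± 33.5 to 60.4 ± 5.36 CPM (log2 fold change −2.40, SE 0.10, adjusted p = 1.05e-05). Ltc4s, leukotriene C synthase, fell from 14.5 ± 0.450 to 3.61 ± 0.329 CPM (−2.01, adjusted p = 0.000185). Tbxas1, thromboxane synthase and itself a P450 by structure, rose from 13.6 ± 4.19 to 30.7 ± 3.65 CPM (1.18, adjusted p = 0.0243).

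Genes known as PPAR alpha targets, other than the P450 genes themselves, fell in 13 of 19 cases and none rose, with 18 negative values and a median log2 fold change of −0.87. Over all genes 3.82% fell. Angptl4, an inhibitor of lipoprotein lipase, fell from 199 ± 40.8 to 16.4 ± 1.06 CPM (−3.61, SE 0.15, adjusted p = 1.81e-05). Plin2, which coats lipid droplets, fell from 161 ± 4.21 to 68.5 ± 3.56 CPM (−1.24, SE 0.068, adjusted p = 4.36e-05). Pdk4, which restrains pyruvate dehydrogenase, and Acot2, a mitochondrial thioesterase, fell by 2.64 and 1.22 on the log2 scale (adjusted p = 0.000288 and 0.000781). Ppara itself was at 25.5 ± 1.41 and 32.6 ± 2.72 CPM, higher in every Cre_positive library, and did not pass (0.36, SE 0.093, adjusted p = 0.0514).

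Among 24 regulators of P450 genes tested, 3 rose and 1 fell, beside 3.73% and 3.82% of all genes. Esr1, the oestrogen receptor, rose from 9.60 ± 3.35 to 21.7 ± 0.637 CPM (log2 fold change 1.17, SE 0.24, adjusted p = 0.0254). Stat5b, which carries the growth hormone signal, rose by 0.36 (adjusted p = 0.0315), and Cebpb fell by 0.65 (adjusted p = 0.0277). Hnf4a was at 522 ± 24.3 and 624 ± 45.4 CPM and did not pass (0.26, adjusted p = 0.108). Of 15 androgen and steroid genes, 2 rose and 1 fell. Kap, the kidney androgen-regulated protein of proximal tubules, rose from 244 ± 177 to 6372 ± 686 CPM (4.71, SE 0.59, adjusted p = 0.0132). Its direction was opposite to that of Cyp4a12a and Cyp4a12b, and the part of androgens in either change was not tested. Hsd3b2 rose by 1.44 (adjusted p = 0.00653), and Tspo, a mitochondrial membrane protein, fell by 0.63 (adjusted p = 0.00247).

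The 4 Cyp4a falls stood beside a rise in proximal tubule markers, the cells in which Cyp4a genes are mainly known. Of 28 such markers 11 rose (3.73% of all genes did) and none fell, with a median log2 fold change of 0.45, and their mean log2 CPM was 8.54 to 8.77 in Cre_negative libraries and 9.05 to 9.22 in Cre_positive ones. Lrp2, the megalin receptor, rose from 1289 ± 72.6 to 2286 ± 130 CPM (0.83, adjusted p = 0.00179), and Slc7a7, Slc7a8 and Dpep1 rose by 0.89, 0.85 and 0.68 (adjusted p = 0.00160, 0.00186 and 0.00214). The rises of Cyp2d26 and Cyp2j11 had the direction of these markers. With the mean of the markers as a covariate, which separates the genotypes, none of the 48 P450 genes passed, beside 15 of all genes. Of the 48, 9 had an unadjusted p under 0.05, and the count over all genes was not taken in that fit. The covariate and the genotype cannot be told apart. In that fit the Cyp4a12a and Cyp4a12b sum had a log2 fold change of −2.25 and Cyp2j11 one of −0.0088. Of 9 markers of the S3 segment, the last stretch of the proximal tubule, none passed in the main fit. An unadjusted p under 0.05 was found there for 5 of them, beside 4683 of the 19927 genes tested. Slc22a19 had the smallest p (1.33, adjusted p = 0.0590), and the median was 0.47.

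Markers of other cell types are read beside the 3.73% of all genes that rose and the 3.82% that fell. Of 15 podocyte markers 4 rose, among them Thsd7a (log2 fold change 0.55, adjusted p = 0.0122), and Cd2ap fell. Of 10 glomerular endothelial markers 8 rose, with a median of 0.60. The macrophage list had a median of −0.90, with C1qc and Cd14 past the threshold. Of 9 hepatocyte markers tested, Fga fell, Ahsg was at 0 in all libraries and Tat had a mean under 0.1 CPM. Of 7 adrenal cortex markers tested, 1 fell, which was Ephx1, and Nr5a1, the factor that defines steroid-making cells, was at 0 in all libraries. The part of these differences in the P450 results was not tested.

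**Figure D5:**
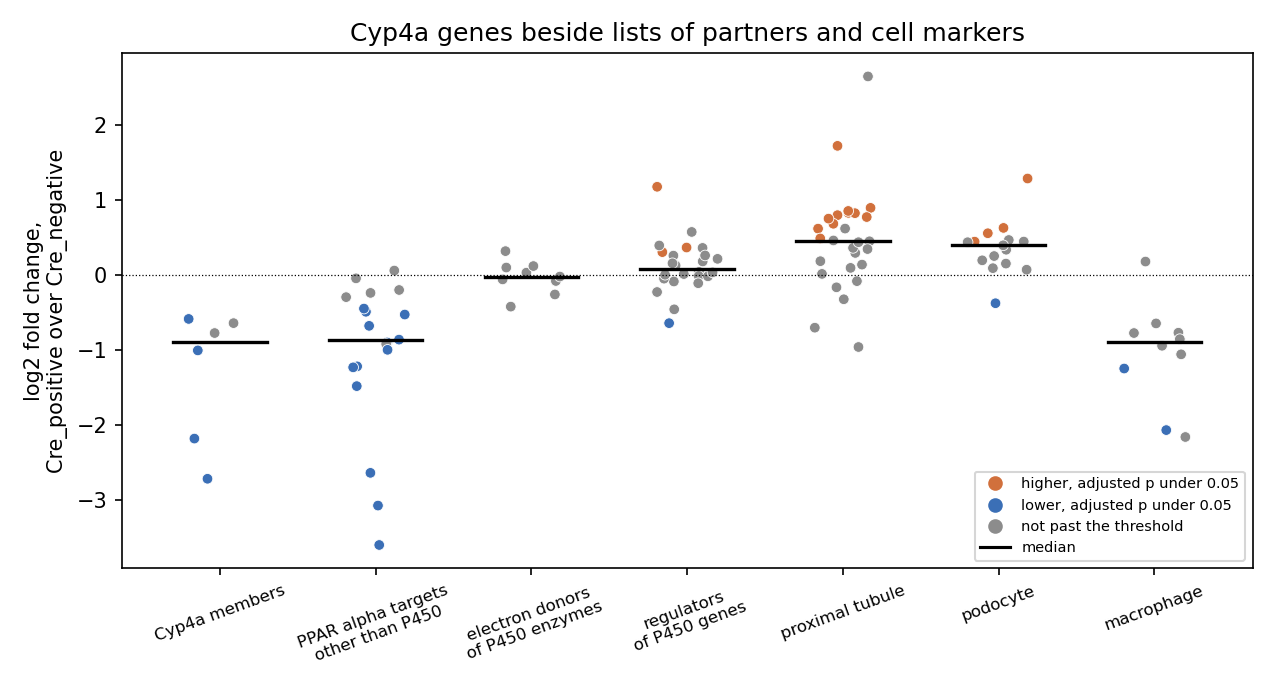
Log2 fold change, Cre_positive over Cre_negative, of each Cyp4a gene and of each gene tested in some of the lists. The lists are PPAR alpha targets, electron donors and regulators of P450 genes, and proximal tubule, podocyte and macrophage markers. Points are genes and bars are medians, with −0.89 for Cyp4a, −0.87 for PPAR alpha targets and 0.45 for proximal tubule markers.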

How the data were processed

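RNA sequencing of glomeruli was analysed from 1 table of whole-number counts per Ensembl gene that the authors deposited for 6 libraries. Per the labels' protocols, libraries were made from poly(A) RNA with dUTP strand marking and sequenced in pairs. The tools fastp, HISAT2, StringTie and edgeR, with GRCm39 as build, stand in the submitters' processing notes without versions. StringTie may derive counts from coverage. The sources used here give neither the annotation, nor the strand setting, nor how multiply matching reads were handled.

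Symbols were found for 51880 of 57132 gene rows. Groups follow the genotype labels, 3 libraries each. Counts were fitted over the whole table with edgeR 4.0.16 in R 4.3.3 (filterByExpr, TMM, quasi-likelihood, robust=TRUE), and p-values were Benjamini-Hochberg adjusted over 19927 genes, with a threshold of 0.05. Each standard error is the fitted change divided by the root of the F statistic. Setdb2 was also tested on log2(CPM + 0.5). The biological coefficient of variation was 21.5% and TMM factors ran from 0.979 to 1.03. All pairs of libraries differed beyond sampling noise (chi-square per degree of freedom 20.6 or more). Intervals are at 95%.

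The P450 genes and the 13 gene lists were chosen with earlier results of these data known. Of 10 electron donor symbols 9 were matched. The rule named genes past the threshold, genes without overlap, the 2 most abundant of each family, the 3 smallest p-values not past it, and up to 4 members of each list; some genes that it takes are left out of the text. Further P450 genes were named to account for every member. Coding windows and overlaps came from GENCODE M21 on GRCm38 and promoters from RefSeq on GRCm38.p6, another build than that of the counts. Alternatives were other scalings and filters, DESeq2 1.42.0, limma 3.58.1 voom with quality weights, robust=FALSE, a replicate block, a proximal tubule covariate and leaving out each library. The test was checked on simulated counts.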

Additional observations from a re-analysis of the deposited data

How the results depend on the processing

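With DESeq2, 16 P450 genes passed, 13 of them lower, beside 2697 of all genes. All 10 calls of edgeR were among the 16, and Cyp2d22, Cyp2d9, Cyp2j5, Cyp4a10, Cyp4f16 and Cyp4f17 were gained. With size factors or upper-quartile factors, a filter at 1 CPM or none, voom with quality weights and robust=FALSE, 10 to 14 P450 genes passed. These were 20.8% to 29.2% of the P450 genes tested, beside 4.6% to 10.3% of all genes. The 10 calls were kept in each. Gained were Cyp2b9, Cyp2d9, Cyp2j5 and Cyp4a10 with voom, Cyp2d9 with robust=FALSE and Cyp2j5 without a filter. With the proximal tubule covariate 0 P450 genes passed (0 higher, 0 lower), and 15 of all genes passed. An unadjusted p under 0.05 was found for 9 P450 genes, without a count over all genes beside it. The Cyp4a12a and Cyp4a12b sum was at −2.25 (edgeR adjusted p = 0.599) and Setdb2 reversed to 0.17 in that fit. Reversed there were also Cyp2j11 (−0.0088), Cyp2f2 (−0.55), Cyp4f16 (0.37), Cyp39a1 (0.00094), Cyp1b1 (0.30) and Cyp1a1 (−2.18). With voom Cyp4b1 (0.027) and Cyp17a1 (0.27) reversed. The cause of these changes was not tested.

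Leaving out single libraries gave 5 to 11 P450 calls, 0 to 2 higher and 4 to 9 lower, and 462 to 2039 calls over all genes. The Cyp4a12a and Cyp4a12b sum ran from −2.76 to −2.35 and Setdb2 from −0.27 to 0.0024. Reversed in at least 1 of these fits were Cyp1b1 (−0.18 to 0.0049; without Cre_negative replicate 1), Cyp1a1 (−0.32 to 0.68; −0.32 and −0.090 without Cre_negative replicates 1 and 3, −0.00037 without Cre_positive replicate 2), Cyp4b1 (−0.70 to 0.71; without Cre_negative replicate 3) and Cyp4f13 (−0.086 to 0.023; without Cre_positive replicate 1).

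Same-numbered libraries correlated at 0.112, 0.101 and 0.0412 in their deviations from the group means, so the numbers were not taken to pair them, although each library correlated best with its own number. With a replicate block 12 P450 genes passed, 9 of the 10 among them, with Cyp4a32 lost and Cyp2d22, Cyp4a10 and Cyp4f16 gained. The block gave 1541 calls over all genes, −2.52 for the Cyp4a12a and Cyp4a12b sum and −0.10 for Setdb2. Cyp2j13, Cyp2d10, Cyp2b9, Cyp26c1, Cyp3a13 and Cyp17a1 had libraries with 0 counts, so their fold changes are imprecise.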
